A study of Mus musculus with 3 samples.

Results

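Rab GTPases, SNARE proteins and their direct partners were examined in 3 cell populations of the mouse peritoneal cavity, with levels of 93 genes of 22180 measured in all. The genes were taken by name from the platform's gene table. They are 58 Rab genes, 7 genes of the VAMP family, 14 syntaxins, 7 syntaxin-binding protein genes, and 7 genes added by name (Snap23, Snap29, Unc13d, Sytl1, Sytl2, Sytl3 and Trappc6b). The table holds 94 such symbols, and 1 of them, Rab4b, was named only together with other genes and is left out of the counts. The set is broader than granule exocytosis, since many Rab GTPases and syntaxins serve other membrane routes of the cell.

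Cells washed from the peritoneum of 5 naive BALB/c females, 10 to 11 weeks old, had been pooled and sorted into mature mast cells, mast cell progenitors and type 2 innate lymphoid cells (ILC2). The labels name no treatment and no altered gene for any group. Both mast cell populations were c-kit high and positive for FcεRI, the high-affinity IgE receptor, and for T1/ST2. They were separated by side scatter, low in progenitors and high in mature cells, and by integrin β7, which was high on progenitors and negative to intermediate on mature cells. ILC2 were positive for CD127, CD25 and T1/ST2, and negative for FcεRI. From each population 100 cells were lysed, their RNA amplified and hybridised to 1 array. With 1 array per population the values carry no error and differences could not be tested.

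Mast cells store histamine, proteases and proteoglycans in granules, which fuse with the plasma membrane and with each other when the IgE receptor is crosslinked. Rab GTPases mark each membrane and recruit the motors and tethers that bring vesicles to their target. Fusion itself is driven by SNARE proteins, a vesicle VAMP pairing with a syntaxin and a SNAP protein on the target membrane. Proteins of the Munc18 family (Stxbp genes) hold and release the syntaxins, and the priming factor Munc13-4 (Unc13d) and the synaptotagmin-like proteins (Sytl genes) link granules marked by Rab27 to this machinery.

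Values are log2 expression levels, on which a difference of 1 is 2-fold and a difference of 2 is 4-fold. A gene was counted at either size only when the brighter of the pair of arrays was above its array's median, which was 6.32 in progenitors and 6.30 on both other arrays. A dimmer level under the median of its array was replaced by that median, and the fold is then written as a lower bound (at least). Above these medians lay 53 of the 93 genes in progenitors, 55 in mature cells and 57 in ILC2, and 34 were at or below the median on every array. Each median splits all probe sets naming 1 gene into roughly equal parts by construction. These counts therefore do not show how many of the genes were expressed. Of the 8 mast cell marker genes, 4 were above a level of 8 in progenitors, 7 in mature cells and 0 in ILC2, and the transcripts of the sort markers Kit (6.88) and Fcer1a (5.37) were low in progenitors. Of the 8 ILC2 markers, 4 were above 8 in ILC2 and 0 in either mast cell population. The 23 measured markers of macrophages, B cells, T cells and granulocytes lay between 4.78 and 7.33 on the 3 arrays, and none differed by more than 0.56 between arrays.

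Most of the genes differed little. Of the 93 genes, 83 differed by less than 2-fold on every pair of arrays, and 9 differed by at least 2-fold with the brighter level above the median, which is 9.68% of the set against 4.12% of all genes. The remaining gene was Rab18, a GTPase of the endoplasmic reticulum and lipid droplets, with 3.41 in progenitors, 4.81 in mature cells and 3.47 in ILC2, all below the medians. The 9 genes were Trappc6b, Rab10, Rab1a, Rab24, Rab3c, Rab4a, Rab2a, Stx4a and Rab8b. None of the 93 was at least 2-fold higher in progenitors than in either other population.

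**Figure D1:**
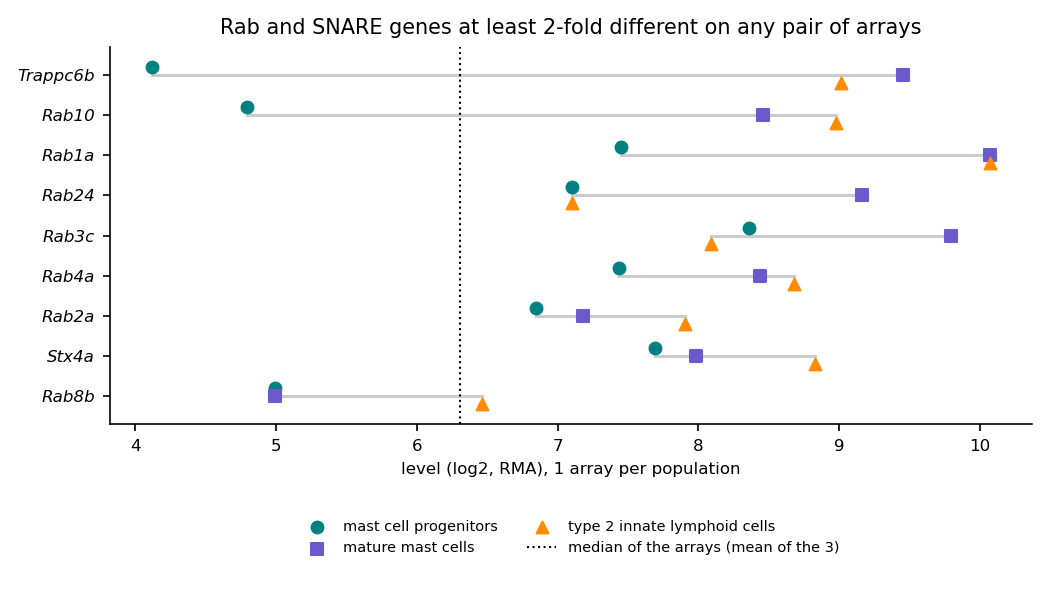
Levels (x axis, log2) of the 9 genes that differed by at least 2-fold on any pair of arrays, with 1 point for each population's single array and a grey line over their range. In progenitors Trappc6b (4.12), Rab10 (4.79) and Rab8b (4.99) lie left of the dotted line, the mean of the arrays' medians. Rab8b lies left of it in mature cells too. The progenitor point of Rab1a (7.45) lies well to the left of its other points.

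The upstream sequences of the 4 genes that reached 4-fold are shown because these genes carry the differences, 3 of them low together in progenitors. The windows are the 250 bases before the annotated transcription start, from RefSeq on GRCm38.p6, written 5′ to 3′ on the gene's strand. Capitals mark matches, on either strand, to 7 short motifs: the E-box CACGTG, the GATA motif AGATAA, the CRE TGACGTCA, the CCAAT box CCAAT, the GC box GGGCGG, the ETS motif CCGGAAG and the TATA box TATAAA.
Trappc6b, chr12:59061473-59061722, minus strand: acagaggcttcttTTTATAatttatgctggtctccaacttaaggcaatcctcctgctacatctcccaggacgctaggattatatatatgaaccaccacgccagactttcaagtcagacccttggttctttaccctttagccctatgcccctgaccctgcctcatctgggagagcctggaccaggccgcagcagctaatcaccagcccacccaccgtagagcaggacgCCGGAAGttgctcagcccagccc
Rab10, chr12:3309970-3310219, minus strand: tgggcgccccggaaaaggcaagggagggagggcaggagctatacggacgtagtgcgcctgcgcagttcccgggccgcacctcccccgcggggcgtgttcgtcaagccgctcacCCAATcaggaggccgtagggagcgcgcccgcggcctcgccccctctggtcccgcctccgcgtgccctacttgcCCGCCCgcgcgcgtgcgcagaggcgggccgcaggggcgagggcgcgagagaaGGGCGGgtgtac
Rab1a, chr11:20201162-20201411, plus strand: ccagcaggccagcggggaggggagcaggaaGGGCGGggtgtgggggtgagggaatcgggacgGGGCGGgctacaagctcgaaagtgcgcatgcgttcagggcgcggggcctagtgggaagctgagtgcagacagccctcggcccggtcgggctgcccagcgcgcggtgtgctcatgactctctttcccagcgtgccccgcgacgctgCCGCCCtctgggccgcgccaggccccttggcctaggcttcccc
Rab24, chr13:55321981-55322230, minus strand: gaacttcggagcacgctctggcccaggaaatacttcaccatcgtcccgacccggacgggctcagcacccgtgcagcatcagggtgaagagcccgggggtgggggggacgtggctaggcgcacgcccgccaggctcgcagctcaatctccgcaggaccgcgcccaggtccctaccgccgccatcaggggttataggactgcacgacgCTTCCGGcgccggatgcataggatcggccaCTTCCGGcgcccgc

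No E-box, GATA or CRE match lies in any of the 4 windows. The Rab1a window holds 3 GC box matches and the Rab10 window holds 2 together with 1 CCAAT box. The Trappc6b window holds 1 ETS and 1 TATA match, and the Rab24 window 2 ETS matches at 44 and 14 bases before the start. No motif of this list lies in all 3 windows of the genes that were low in progenitors alone. GC content was 74.8% for Rab10, 72.4% for Rab1a, 68.8% for Rab24 and 53.6% for Trappc6b, where the median of all 32851 windows was 52.4%. RefSeq windows were matched for 76 of the 93 genes, 93 windows in all. A GC box lay in 60.2% of these and in 32.7% of all windows, an ETS motif in 4.3% and 6.91%, a CCAAT box in 38.7% and 33.8%, an E-box in 8.6% and 6.02%, a GATA motif in 4.3% and 9.99%, a CRE in 3.23% and 1.55%, and a TATA box in 7.53% and 12.4%. No overlaps between motifs were found in the windows shown, and a match describes the letters only.

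Progenitors and mature mast cells were compared to ask how the transport and fusion genes differ between an immature and a granule-filled mast cell. Trappc6b and the Rab genes Rab1a, Rab10 and Rab24 were lower in progenitors. No VAMP, syntaxin, SNAP or Stxbp gene of the set differed by 2-fold. Over all genes, 1.93% were at least 2-fold lower and 0.509% at least 2-fold higher. At such shares few or none of so small a group would be counted, so this is not read as a contrast with the Rab genes. At least 4-fold lower in progenitors were Trappc6b, Rab10, Rab1a and Rab24, 4 of 93 genes (4.3%), against 0.834% of all genes. At least 2-fold lower were 6 of 93, with Rab3c and Rab4a added, against 1.93% of all genes. None of the 93 was 4-fold or 2-fold higher in progenitors, where 0.113% and 0.509% of all genes were. Trappc6b was included by name with its values known. Among the 86 genes found by symbol alone, 3 (3.49%) were at least 4-fold lower.

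Trappc6b encodes a subunit of the TRAPP complex, which tethers vesicles at the Golgi and activates Rab1. Its level was 4.12 in progenitors, 9.45 in mature cells and 9.01 in ILC2. Progenitors alone were low, at least 8.80-fold below mature cells and at least 6.49-fold below ILC2. Of 22 other measured tether genes (exocyst and TRAPP subunits), none differed by 2-fold on any pair of arrays and 16 had the same level on all 3. Over all genes, 4.12% were counted at 2-fold on some pair and 47.9% had the same level on all 3. At such a share few or none of 22 genes would be counted, so this is not read as a contrast with Trappc6b. The paralogue Trappc6a was at 7.54 on each array.

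Rab1a, the GTPase of transport from the endoplasmic reticulum to the Golgi, was at 7.45 in progenitors and at 10.07 in both mature mast cells and ILC2. The difference was 6.17-fold, and the progenitor level was still above its array's median. Its close paralogue Rab1b had 6.41 in progenitors, 5.78 in mature cells and 6.24 in ILC2, differences under 2-fold, with the mature and ILC2 levels below their arrays' medians. Rab10, which directs Golgi and endosomal carriers to the plasma membrane, read 4.79 in progenitors, 8.46 in mature cells and 8.98 in ILC2. Progenitors were at least 4.43-fold below mature cells and at least 6.33-fold below ILC2. Rab8a and Rab13, which act in related exocytic routes, were each at the same level on all 3 arrays (6.63 and 7.06). Rab8b, grouped with them, was at 4.99 in both mast cell populations and 6.46 in ILC2.

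Low levels on the progenitor array alone were not restricted to these genes. Of 489 genes above a level of 8 in both mature mast cells and ILC2 and within 2-fold between them, a background chosen after the data were examined, 8.38% lay at least 4-fold below both in progenitors and 19.2% at least 2-fold below. The same shares were 0% and 1.35% of 371 genes for mature cells and 0.746% and 3.23% of 402 genes for ILC2. Rab1a, Rab4a, Rab10, Trappc6b and Vamp8 meet this condition through the arrays where they are high, so their number is not read against these shares. RNA was amplified from 100 cells for each array, and the part of amplification in these differences was not tested. In material of this kind, fewer cells expressing a gene and less RNA per cell cannot be told apart.

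Rab4a, a GTPase of rapid recycling from early endosomes, was at 7.43 in progenitors, against 8.44 in mature cells and 8.68 in ILC2. Progenitors were 2.01-fold and 2.38-fold lower, the first just past the 2-fold limit. The slow recycling GTPase Rab11b read 8.48 in progenitors, 7.84 in mature cells and 7.79 in ILC2 by the brightest of its 3 probe sets, under 2-fold. Rab11a, its paralogue, was at 6.83, 6.86 and 6.96 in the same order. Over the 14 Rab genes of early and recycling endosomes, 13 stayed under 2-fold on every pair, where 4.12% of all genes were counted on some pair.

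Rab24 and Rab3c were higher in mature mast cells than in both other populations. Rab24, an atypical Rab linked to autophagy, was at 7.10 in progenitors, against 9.17 in mature cells and 7.10 in ILC2. Mature cells were 4.19-fold above each of the others. Rab3c, a Rab3 isoform of regulated secretory vesicles known mainly from neurons and endocrine cells, read 8.36 in progenitors, 9.79 in mature cells and 8.09 in ILC2. Mature cells were 2.71-fold above progenitors and 3.26-fold above ILC2, by the brighter of 2 probe sets, while the other probe set read 5.74 on every array.

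Of 9 Rab genes of secretory granules, 8 differed by less than 2-fold on every pair, and Rab3c was the exception. Over all genes, 4.12% were counted on some pair. At that share few or none of so small a group would be counted, so this is not read as a contrast with Rab3c. Rab27a, which docks granules at the plasma membrane, was at 6.34 in progenitors, against 6.41 in mature cells and 6.41 in ILC2. Rab27b, the isoform that in mouse mast cells carries granules toward the cell edge, read 7.35 in progenitors, 7.35 in mature cells and 7.41 in ILC2. All 3 arrays lay within 0.07 of each other for both genes. Rab37, a Rab of mast cell granules, was at 6.30 in progenitors, against 6.67 in mature cells and 6.30 in ILC2. Rab3d, found on secretory granules of exocrine and mast cells, was at 6.82, 6.79 and 6.63 in the same order. Rab44, a large Rab with a role in mouse mast cell degranulation, read 7.67 on every array, Rab3a 6.10 and Rab26 6.39. Mature cells were slightly brighter for Rab37, and no array stood out for the others. Rab3a was below the median on every array, and Rab37 was below it in progenitors and ILC2. Small differences of these genes would therefore not be seen.

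**Figure D2:**
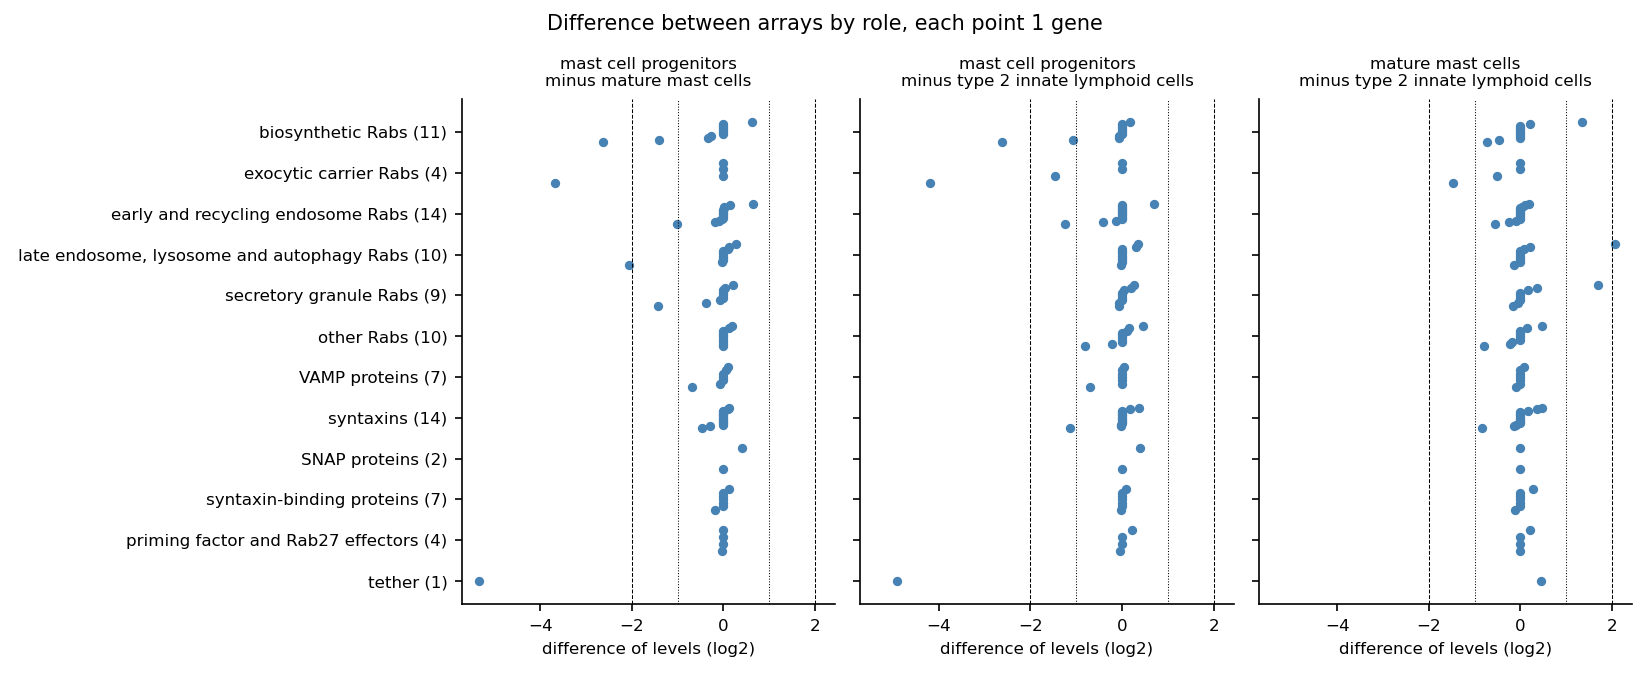
Difference of log2 levels (x axis) for each of the 93 genes, by role (number of genes in brackets), in the 3 comparisons. Each point is 1 gene, and dotted and dashed lines mark 2-fold and 4-fold. Most of the 93 points in each panel lie at or near 0, and the points past 4-fold are Trappc6b, Rab10, Rab1a and Rab24.

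Among the VAMP, syntaxin and SNAP genes of the set, none was 2-fold different between the mast cell populations. At the shares of all genes (1.93% lower and 0.509% higher), few or none of so small a group would be counted. Vti1b and Bet1, SNAREs outside the set, were counted at 2-fold between these populations and are described below. Vamp8, the vesicle SNARE needed for full granule release from mouse mast cells, read 8.30 in progenitors, 8.996 in both mature cells and ILC2. Progenitors were lower by 1.62-fold, short of the limit, and the deposited levels of mature cells and ILC2 were identical. Vamp3 read 6.50, Vamp2 5.78 and Vamp7 4.25 on every array, and Vamp4 lay between 5.51 and 5.59. Vamp5, described mainly in muscle, was at 7.54 in progenitors and 7.50 in both others. All 7 VAMP genes thus stayed under 2-fold, with the difference of Vamp8 the widest of them. Vamp2, Vamp4 and Vamp7 were below the median on every array, so small differences of these genes would not be seen.

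The plasma membrane partners were similarly flat between the mast cell populations. Snap23, the SNAP protein that pairs with syntaxin 4 in mast cells, was at 7.24 in progenitors, against 6.84 in mature cells and 6.84 in ILC2. Stx4a, syntaxin 4, read 7.69 in progenitors, 7.98 in mature cells and 8.83 in ILC2. Its ILC2 level was 2.20-fold above progenitors and 1.80-fold above mature cells. It was the only one of 14 syntaxins past 2-fold, where 4.12% of all genes were counted on some pair. Stx3, a syntaxin also placed on mast cell granules, was at 7.19 in both mast cell populations and 6.83 in ILC2. Stx11, the syntaxin lost in an inherited human form of haemophagocytic disease, read 6.49 on every array, Stx6 6.67 and Stx7 6.05. Stx12, an endosomal syntaxin, was below the median on every array, with 4.59 in progenitors, 5.06 in mature cells and 4.59 in ILC2. Snap29, a SNAP protein of internal membranes and autophagosomes, read 5.75 throughout, and like Stx7 it was below the median on every array.

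The regulators of fusion also differed by less than 2-fold. Stxbp2, which encodes Munc18-2, the partner of syntaxins 3 and 11, read 6.74 on every array. Stxbp3, which encodes Munc18-3, a partner of syntaxin 4, was at 6.12 in progenitors and 6.13 in both others. The pseudogene Stxbp3-ps was at 5.31, 5.49 and 5.21, and whether its probes also bind the Stxbp3 transcript was not tested. Unc13d, the priming factor Munc13-4, was at 7.10 in progenitors and 7.14 in both others. Sytl1 read 6.61 and Sytl3 7.40 on every array, and Sytl2 was at 5.62 in both mast cell populations and 5.40 in ILC2. All 7 syntaxin-binding protein genes and these 4 stayed under 2-fold, where 4.12% of all genes were counted at 2-fold on some pair. Stxbp3, Stxbp3-ps and Sytl2 were below the median on every array, so small differences of these genes would not be seen.

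Of 28 measured genes with roles described in mast cells, listed by name, 27 differed by less than 2-fold on every pair of arrays, and Stx4a was the exception, while 4.12% of all genes were counted at 2-fold on some pair. The 28 were listed with earlier results of these data known. Exactly the same level on all 3 arrays was found for 13 of them, where 47.9% of all genes had it, and 10 were at or below the median on every array, so small differences of these genes would not be seen. The 28 include Rab5a (5.10, 5.28 and 5.10 in progenitors, mature cells and ILC2), Rab5b (6.29, 6.15 and 6.70) and Rab5c (6.25 on each), GTPases of early endosome fusion. They also hold Rab7 of late endosomes, at 7.35, 7.25 and 7.05. Rab12, which moves granules inward along microtubules in mast cell lines, was at 4.62, 4.49 and 4.62. Rab32 (6.44) and Rab38 (6.55), which supply lysosome-related organelles, and Rab14 (6.64) read the same on each array.

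**Figure D3:**
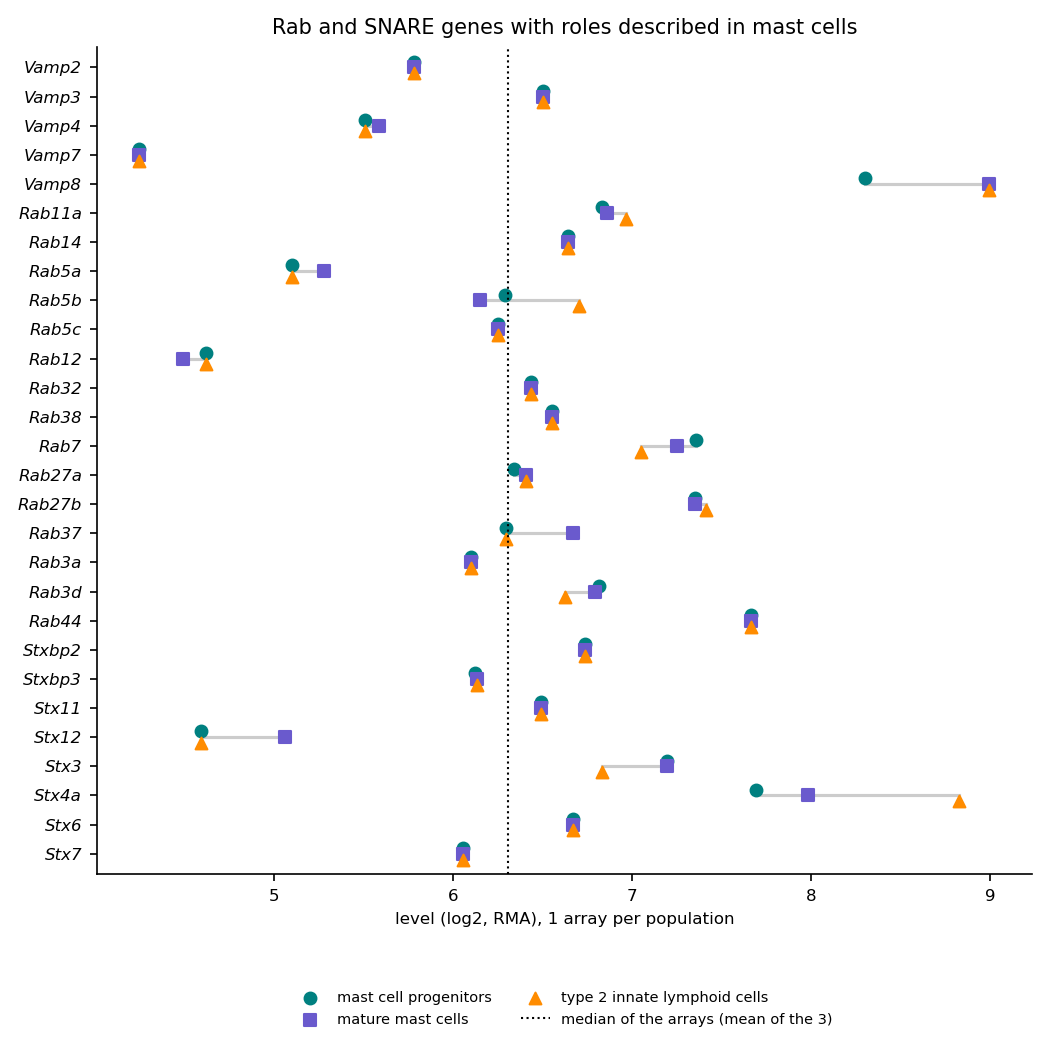
Levels (x axis, log2) of the 28 genes with roles described in mast cells, 1 point for each population's single array. For most genes the 3 points coincide or lie close together, and Vamp8 and Stx4a have the widest spread.

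Identical levels were common on these arrays. Different genes also shared them, such as 6.54938 for Rab38 on every array and for Rab17 in mature cells and ILC2. Identical levels are therefore not read as equal abundance, and their origin was not tested. Of the 93 genes, 44 (47.3%) had exactly the same deposited level on all 3 arrays, as did 47.9% of all genes. Progenitors alone differed from 2 equal arrays for 10 of the genes, among them Rab1a and Vamp8, mature cells alone for 11, among them Rab24, and ILC2 alone for 9, among them Rab8b. The corresponding shares were 10.8%, 11.8% and 9.68% in the set and 12.7%, 9.08% and 10.4% over all genes. The median difference of the 93 genes was 0 in each comparison, as it was for all genes.

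Progenitors were next set against ILC2, the lymphoid population of the same cavity that shares the T1/ST2 marker. Trappc6b, Rab10 and Rab1a were again lower in progenitors, and the values share the progenitor array with the comparison above. At least 4-fold lower were 3 of 93 genes (3.23%), against 0.888% of all genes, and 2 of the 86 found by symbol alone (2.33%). At least 2-fold lower were 7 (7.53%), against 1.88%, the further genes being Rab4a, Rab2a, Stx4a and Rab8b. None was 4-fold or 2-fold higher, where 0.207% and 0.766% of all genes were. Below both other populations by at least 2-fold in progenitors lay 4 genes, which holds for 0.739% of all genes.

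Rab2a, a GTPase between the endoplasmic reticulum and the Golgi, was at 6.85 in progenitors, against 7.18 in mature cells and 7.90 in ILC2. ILC2 were 2.08-fold above progenitors, and mature cells lay between. Its paralogue Rab2b read 6.28 on every array. Rab8b, an exocytic Rab, was at 4.99 in both mast cell populations and 6.46 in ILC2. Its measured difference is counted at 2-fold, but its mast cell levels lie below the arrays' medians and its ILC2 level just above, so that ILC2 were at least 1.10-fold above progenitors and at least 1.12-fold above mature cells only.

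Mature mast cells and ILC2 differed at few of these genes. Rab24, at 4.19-fold, was the only gene at least 4-fold higher in mature cells (1.08% of the set, against 0.573% of all genes), and with Rab3c 2 genes were at least 2-fold higher (2.15%, against 1.34%). Rab8b was the only gene at least 2-fold lower (1.08%, against 1.26%), and none was 4-fold lower, where 0.401% of all genes were. These shares rest on 1 or 2 genes each and are near those of all genes. Rab1a and Vamp8 had identical deposited levels in both populations, and Trappc6b and Rab10 differed by 1.36-fold and 1.43-fold.

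**Figure D4:**
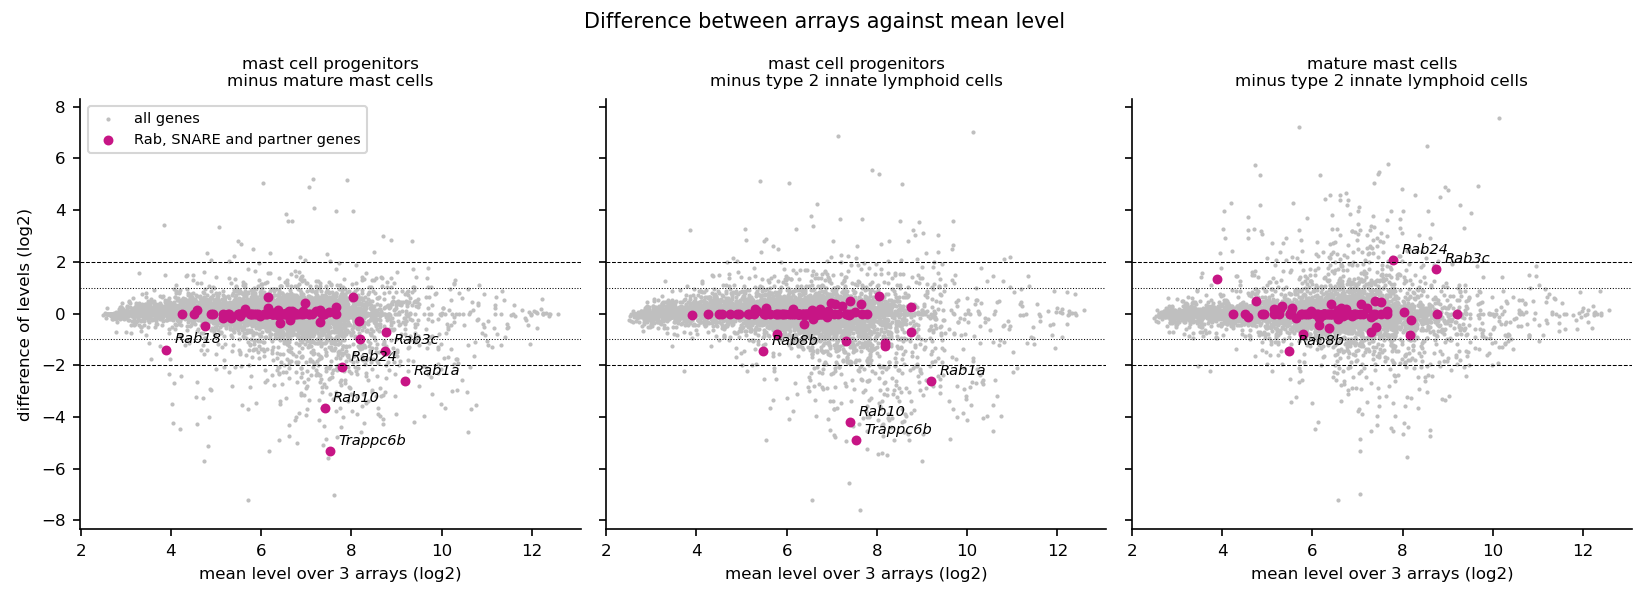
Difference of log2 levels (y axis) against the mean level over the 3 arrays (x axis) for all 22180 genes (grey) and the 93 Rab, SNARE and partner genes (coloured), 1 panel for each comparison, with lines at 2-fold and 4-fold. Trappc6b, Rab10 and Rab1a lie below the 4-fold line in both panels with progenitors.

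Other genes of vesicle transport were taken from 5 lists fixed by name. Gdi2, which encodes a GDP dissociation inhibitor that returns Rab proteins from membranes to the cytosol, read 6.40 in progenitors, 9.34 in mature cells and 9.62 in ILC2. Progenitors were 7.70-fold and 9.31-fold lower. Tbc1d15, which encodes an activator of GTP hydrolysis by Rab7, was at 4.99 in progenitors, against 6.64 in mature cells and 9.08 in ILC2. ILC2 were at least 6.82-fold above progenitors and 5.43-fold above mature cells, but its other probe set read 6.11 on every array. Of 38 measured Rab regulators and effectors, 35 stayed under 2-fold on every pair. At least 4-fold lower in progenitors were 1 of 38 against mature cells, where 0.834% of all genes were, and 2 of 38 against ILC2, where 0.888% were. None of the 38 was 2-fold higher in progenitors in either comparison, where 0.509% and 0.766% of all genes were. Rin3, an exchange factor for Rab5, read 8.26 in progenitors, 7.67 in mature cells and 7.74 in ILC2. Dennd5a, also an exchange factor, was at 6.53 in both mast cell populations and 7.76 in ILC2.

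Of 32 other SNARE and Sec1/Munc18 genes, 4 were counted at 2-fold on some pair, all of them SNAREs. This is a larger share than the 4.12% of all genes, but it rests on 4 genes. Bet1, a SNARE of transport from the endoplasmic reticulum to the Golgi, was at 3.94 in progenitors, against 6.89 in mature cells and 3.83 in ILC2. It was counted as 4-fold different from both, but over the progenitor array's median it is at least 1.49-fold only. Bet1l, its Golgi relative, was at 6.82, 6.73 and 8.48, and Use1, a SNARE of the return route to the endoplasmic reticulum, at 6.81, 6.84 and 8.39 in the same order, so ILC2 alone were high for both. Vti1b, a late endosomal SNARE, read 6.95 in progenitors, 8.10 in mature cells and 7.23 in ILC2, and mature cells were 2.21-fold above progenitors. Sec22b was at 7.31 in progenitors and ILC2 and 7.78 in mature cells, and Cplx1, a complexin, at 7.44 in progenitors and 7.55 in both others.

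In the remaining lists no gene reached 2-fold on any pair, where 4.12% of all genes were counted on some pair. At that share few genes of such short lists would be counted. These lists hold 32 calcium sensors and priming factors, of which 25 had equal levels on all arrays. They also hold 19 genes of granule and lysosome-related organelle biogenesis, of which 13 had equal levels. Over all genes the share with equal levels was 47.9%. Syt8, a synaptotagmin, read 7.92 on every array, and Syt15 was at 7.68 in progenitors, against 7.42 in mature cells and 7.31 in ILC2. Ap3b1, a subunit of the AP-3 adaptor that sorts cargo to granules, was at 7.43 in progenitors and 7.64 in both others. Hps1, mutated in Hermansky-Pudlak syndrome, read 7.62 on every array by the brighter of its probe sets, and Trappc2l of the tether list was at 7.24, 7.31 and 7.52. The median difference of all 5 lists was 0 in each comparison.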

How the data were processed

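RNA of 3 sorted populations was measured on 1 whole-transcript array each, and the number of arrays limits the precision. The deposited values are log2 levels of 41345 probe sets, which the submitters' processing notes credit to RMA; software and version are not given in the sources used here, and the log2 scale was inferred from the range of the values. Probe-level signals and detection calls were not used here. A total of 23521 probe sets named 1 gene in the platform's gene table, and each gene was represented by its brightest probe set by mean, which gave 22180 genes. All 93 genes of the set matched RefSeq identifiers, and no symbol changed. Probe sets that several paralogues could share were not examined.

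Differences of log2 levels were taken with Python 3.11.15, numpy 2.4.6 and pandas 2.3.3 and counted at 2-fold and 4-fold above the array medians. The counting was tested on simulated data. The genes and lists were chosen with earlier results of these data known, and role groups, motifs and promoters with the values in view. Named were genes past 2-fold, above a level of 8, added by name or listed for mast cell roles; of the other lists, those past 4-fold and the brightest 2. Rab18, Rab1b, Rab2b, Rab8a, Rab13, Rab26, Vamp5 and Stxbp3-ps, the first named for its size of difference, and Vti1b, Bet1l, Use1 and Dennd5a lie outside this rule and were chosen after their values were seen. Counts planned among genes with a mean level of at least 7 are not given, since genes pass that filter through the arrays where they are high. Protein features planned for the set were not analysed here. Alternatives were a floor at the 75th percentile or none, quantile normalization, median centring and the mean of a gene's probe sets. Medians were also recalculated over genes with a mean level of at least 7.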

Additional observations from a re-analysis of the deposited data

How the results depend on the processing

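Of 72 recalculated summary values, 70 stayed within 1.5 times the count or within 0.1 of the median. They include, for each comparison, the median over genes with a mean level of at least 7. Genes pass that filter through the arrays where they are high, so these medians are no evidence of stability. The exceptions lie between mature mast cells and ILC2, where averaging a gene's probe sets left 1 gene at least 2-fold higher in place of 2, and a floor at the 75th percentile left 0 genes at least 2-fold lower in place of 1. The first is Rab3c, at 0.85 and, against progenitors, -0.72 when its probe sets were averaged, and the second is Rab8b, whose ILC2 level is under that floor. Rab4a fell short of 2-fold against mature cells after quantile normalization, at -0.95. Of 80 recalculated differences of single genes, 75 were still counted at 2-fold and 3 fell below 2-fold. The other 2, both of Rab8b, kept their size under a floor that no longer counts them. Many of these outcomes were fixed in advance, so the 75 are not read as a measure of stability. Neither floor setting changes a difference, and removing the floor cannot uncount a gene. Of the counted genes only Rab3c has several probe sets to average. Median centring shifts all genes of a comparison by the same small amount. No paired analysis was possible because each population has 1 array. Levels near the array medians may be background, so small differences of dim genes are not detectable here.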

Other observations

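Probe sets that name a gene of the families together with another gene were not counted above and were flat. The probe set of Rab4b and Mia read 5.59 in progenitors, 5.73 in mature cells and 5.78 in ILC2, and that of Rab4b, Mia and a microRNA at 2.65, 2.65 and 2.75. The probe set shared by Vamp1 and a provisional gene read 7.28 on every array. Those shared by Sytl3 and by Rab3b with provisional genes varied by 0.03 and 0.25 over the arrays.

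Of the 7 genes with several probe sets, Rab3c and Rab11b had a bright probe set that varied and dimmer ones that hardly did. For Rab11b the others read 6.19 on every array and 5.94, 5.78 and 5.94 in progenitors, mature cells and ILC2.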
